A study of Mus musculus with 6 samples.

Results

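The genes described here are 10 mouse transcription factors that are commonly linked to epithelial-mesenchymal transition (EMT) and to mesenchymal identity. They are the Snail repressors Snai1 and Snai2, the Twist factors Twist1 and Twist2, the Zeb repressors Zeb1 and Zeb2, the E protein Tcf4, the homeobox factor Prrx1, and Tcf21 and Osr1, which mark fibroblast progenitors in several organs. They were taken by gene symbol from a list of names and not by their levels, and each matched 1 of the 49548 genes of the deposited table. All 10 were among the 26402 genes tested, and all 10 averaged 10 or more normalized counts over the libraries, while 7 reached 10 in every library.

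The libraries came from cancer-associated fibroblasts (CAFs) of mouse colonic adenomas, and the comparison asked how the fibroblasts in which Col6a1Cre had been active differ from the other fibroblasts of the same tumors. C57/BL6 mice that carried Col6a1-cre and Rosa26-mTmG were 8 to 10 weeks old at the injection of the carcinogen azoxymethane (AOM), and were then given 2.5% dextran sodium sulfate (DSS), which causes colitis, in 3 cycles. Cre turns the Tomato of the mTmG reporter into GFP, so GFP+ cells are Col6a1+ CAFs and Tomato+ cells are Col6a1- CAFs, and both were sorted from cells without CD45, EpCAM, CD31 and Ter119. There were 3 libraries of each subset, each from the pooled tumors of 5 to 6 mice, and both subsets came from treated, Cre-carrying animals. Col6a1Cre marks any cell in which the promoter was once active, pericytes included, so the Col6a1+ subset is not 1 cell type. No group of untreated or homeostatic cells is analysed here.

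Snail and Zeb proteins are zinc-finger repressors that bind E-boxes, short DNA motifs of the form CANNTG, and silence E-cadherin and other junction genes when epithelial cells turn mesenchymal. Twist1, Twist2, Tcf21 and Tcf4 are basic helix-loop-helix (bHLH) factors, which bind E-boxes in pairs, and the Id proteins block them by pairing with E proteins such as Tcf4. In connective tissue the same factors are not signs of a transition, since fibroblasts and pericytes use Twist, Zeb, Prrx1 and Tcf21 as part of their normal program.

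The E-boxes of this system can be shown in the promoters themselves. RefSeq windows of 300 bases on GRCm38.p6, from 250 bases before to 50 bases after the annotated start, were given for 6 of the 10 factors, namely Snai1, Twist1, Twist2, Zeb2, Prrx1 and Tcf21. The forms CACCTG and CAGGTG, which read as each other on the opposite strand and are preferred by Snail and Zeb proteins, were searched, so that both strands were covered. They occurred in 20.2% of all 32851 windows and in 1 of the 6 factors' windows, that of Snai1, which held 1 copy. The wider motif CANNTG, which includes these forms, occurred in 72.3% of all windows and again in 1 of the 6. The windows of Snai1, Zeb2 and Prrx1, the factors with a window that also passed the test of the comparison, are printed in lower case, with the CACCTG of Snai1 in capitals to set it beside the other 2, which held none.
Snai1 (chr2:167537945-167538244, plus strand): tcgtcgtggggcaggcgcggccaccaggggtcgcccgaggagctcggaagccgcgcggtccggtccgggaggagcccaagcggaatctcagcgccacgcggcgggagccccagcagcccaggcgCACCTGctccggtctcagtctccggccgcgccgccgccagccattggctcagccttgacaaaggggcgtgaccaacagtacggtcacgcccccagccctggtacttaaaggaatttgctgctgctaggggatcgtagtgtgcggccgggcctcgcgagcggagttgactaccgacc
Zeb2 (chr2:45117393-45117692, minus strand): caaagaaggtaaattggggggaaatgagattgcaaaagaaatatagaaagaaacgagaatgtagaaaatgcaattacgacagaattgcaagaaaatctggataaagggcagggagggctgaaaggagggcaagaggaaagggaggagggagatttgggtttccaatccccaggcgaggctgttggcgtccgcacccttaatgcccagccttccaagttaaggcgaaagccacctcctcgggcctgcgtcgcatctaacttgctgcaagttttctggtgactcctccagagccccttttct
Prrx1 (chr1:163313601-163313900, minus strand): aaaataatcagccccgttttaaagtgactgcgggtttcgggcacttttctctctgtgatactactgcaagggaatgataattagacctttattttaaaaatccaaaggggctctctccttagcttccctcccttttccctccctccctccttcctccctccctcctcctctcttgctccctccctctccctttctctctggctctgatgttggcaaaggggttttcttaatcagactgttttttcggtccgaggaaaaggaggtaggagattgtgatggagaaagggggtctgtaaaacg
The windows of genes that EMT is known to silence were searched for the same letters. Of 16 epithelial junction genes listed for that reason, 13 had a window, and 12 of the 13 held CACCTG or CAGGTG, all except Cldn7. Among 10 windows of mesenchymal genes, 1 held them, that of Sparc, and among 5 windows of epithelial transcription factors also 1, that of Elf3. Of the 4 junction genes with more than 1 copy, 3 are printed with CACCTG and CAGGTG in capitals, as the clearest cases of this spelling. They encode the adhesion molecule Epcam, the tight junction claudin Cldn4 and the polarity protein Crb3, and held 2, 2 and 4 copies.
Epcam (chr17:87635729-87636028, plus strand): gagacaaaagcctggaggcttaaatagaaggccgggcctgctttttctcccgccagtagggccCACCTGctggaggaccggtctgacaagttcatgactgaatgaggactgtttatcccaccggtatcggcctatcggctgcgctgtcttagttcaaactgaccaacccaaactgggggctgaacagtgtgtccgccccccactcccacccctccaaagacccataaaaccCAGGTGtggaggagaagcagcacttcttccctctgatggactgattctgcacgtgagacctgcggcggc
Cldn4 (chr5:134946885-134947184, minus strand): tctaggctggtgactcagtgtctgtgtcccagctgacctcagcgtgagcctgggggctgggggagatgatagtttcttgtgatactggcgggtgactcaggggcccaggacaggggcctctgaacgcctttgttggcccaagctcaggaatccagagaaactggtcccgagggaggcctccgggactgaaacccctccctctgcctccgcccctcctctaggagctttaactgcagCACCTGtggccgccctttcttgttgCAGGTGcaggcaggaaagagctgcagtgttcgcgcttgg
Crb3 (chr17:57061951-57062250, plus strand): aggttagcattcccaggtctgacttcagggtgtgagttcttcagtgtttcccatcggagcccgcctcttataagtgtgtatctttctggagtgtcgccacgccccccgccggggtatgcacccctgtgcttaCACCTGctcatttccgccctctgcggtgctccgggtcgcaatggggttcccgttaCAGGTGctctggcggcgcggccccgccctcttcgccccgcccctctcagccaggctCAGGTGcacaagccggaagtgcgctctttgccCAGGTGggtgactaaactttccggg
The median GC content was 60.3% in the 13 junction gene windows, 59.0% in the 6 factor windows and 52.7% in all windows. A match is a description of the letters in these windows, and binding was not measured.

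The libraries matched their labels for the gene whose promoter drives Cre. Col6a1 itself was at 861, 1287 and 1941 normalized counts in Col6a1+ CAFs and at 182, 321 and 102 in Col6a1- CAFs, with no overlap. Its log2 fold change, the difference between the subsets in the mean of log2(normalized count + 1), was 2.82 (SE 0.44, limma adjusted p = 0.00613, or 0.0983 with the replicate number as a block). A normalized count is the authors' read count per gene after their normalization, taken here to be DESeq's division by a size factor of the library. The added 1 makes the log2 fold change of a gene with few counts too small. The sums over all genes lay between 3039152 and 3425249, and 14530 to 20511 genes had counts, with the lowest number in Col6a1+ replicate 1. Epithelial and immune markers moved with the subsets in spite of the sort. The 12 epithelial markers summed to 5972 to 6783 normalized counts in Col6a1+ and 20548 to 35332 in Col6a1- CAFs, with 10 of the 12 higher in all 3 Col6a1- libraries. The 12 immune markers summed to 59 to 114 and 519 to 1054, with 7 of the 12 higher in all 3 Col6a1- libraries and Ptprc (CD45) at no more than 8 anywhere. The 10 endothelial markers summed to 151 to 404 and 389 to 758, which overlap, with 2 of the 10 higher in all 3 Col6a1- libraries. The erythroid sums overlapped as well, at 74 to 987 and 187 to 346, and so did the glial and mesothelial sums. The sum of the 10 pericyte and smooth muscle markers went the opposite way to the epithelial sum, from 51441 to 104136 in Col6a1+ and from 1501 to 3993 in Col6a1- CAFs. So did that of the 10 pan-fibroblast markers, from 41818 to 47056 and from 7435 to 15072. In these lists, 9 and 8 of the 10 markers were higher in all 3 Col6a1+ libraries. Lum and Fbln1 of the pan-fibroblast list overlapped, Fbln1 with 2, 400 and 134 normalized counts in Col6a1+ and 132, 585 and 205 in Col6a1- CAFs. In bulk samples, fewer cells of a type and less RNA per cell cannot be told apart, so each factor is also given per 10000 normalized counts of the pan-fibroblast markers.

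**Figure D1:**
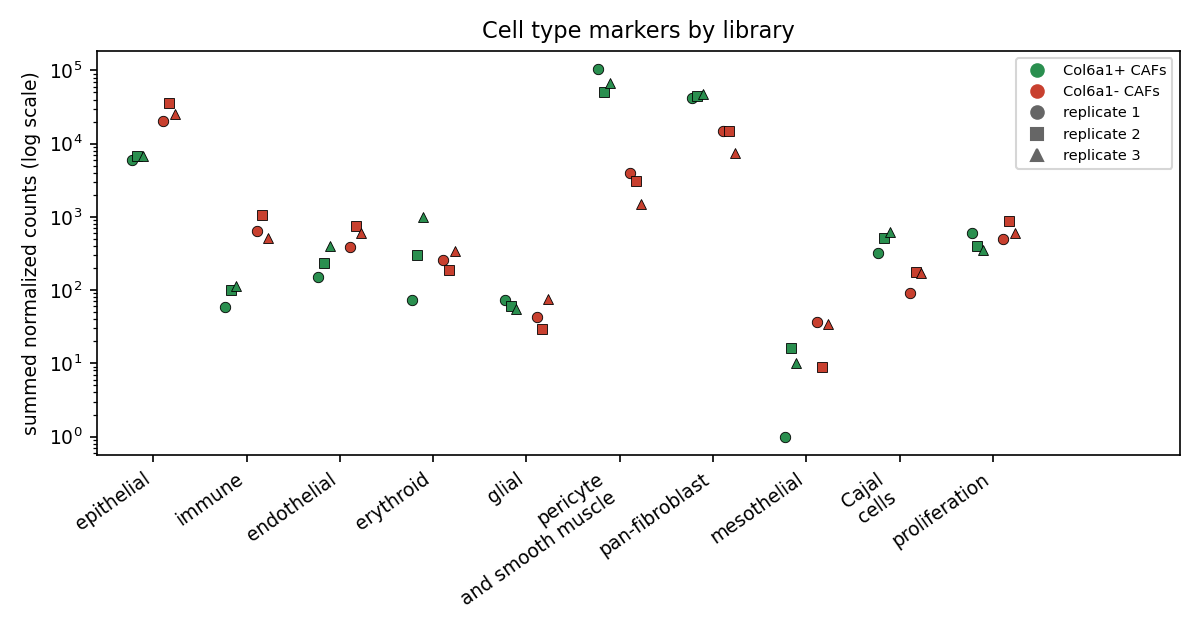
Summed normalized counts of 10 marker lists (log axis) in the 3 Col6a1+ (green) and 3 Col6a1- (red) CAF libraries, with a symbol for each replicate number. The epithelial sums are 20548 or more in every Col6a1- library and 6783 or less in every Col6a1+ library, while the pan-fibroblast sums are 41818 or more in Col6a1+ and 15072 or less in Col6a1- libraries.

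Of the 10 factors, 4 were higher in Col6a1+ CAFs, namely Prrx1, Zeb2, Snai1 and Zeb1, and none was lower, at an adjusted p under 0.05. In the same direction, 2.66% of all 26402 genes tested were called (703 genes), and 5.15% of the 13515 genes that averaged 10 or more normalized counts. In the other direction 1.96% of all genes tested were called (517 genes), and 0 factors, with 0 factors lower also at an unadjusted p under 0.05 and with limma-voom. In 7 of the 10 factors all 3 Col6a1+ libraries exceeded all 3 Col6a1- libraries, which held for 7.91% of all genes tested and 14.2% of those averaging 10 or more. The log2 fold change was above 0 for 9 of the 10, with a median of 1.96 over the factors and of -0.27 over all genes tested. Together the 10 factors summed to 2135, 4069 and 3638 normalized counts in the Col6a1+ libraries and to 1596, 1450 and 2646 in the Col6a1- libraries, which overlap. Tcf4 was the largest term of this sum in each library.

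Each of the 4 factors lost its call without at least 1 single library, and the treatment of the replicate numbers as pairs also changed the calls. Left out in turn, Col6a1- replicate 1 left 0 factors called (8 at an unadjusted p under 0.05), Col6a1+ replicate 3 left Zeb2 and Col6a1- replicate 3 left Prrx1, Col6a1+ replicate 2 and Col6a1- replicate 2 left 2 each (Prrx1 and Zeb2), and without Col6a1+ replicate 1 Snai1 lost its call while Snai2 gained one (adjusted p = 0.0486) beside Prrx1, Zeb1 and Zeb2. With the replicate number as a block, limma called 0 of the 10 factors (7 at an unadjusted p under 0.05) and 0 of all 26402 genes, whereas among the genes averaging 10 or more the same blocked fit called 7 factors as higher, beside 7.26% of those 13515 genes. Those 7 are the factors whose libraries did not overlap. At an unadjusted p under 0.05, 1585 of 25839 genes were higher without Col6a1- replicate 1. With the block, 1851 of all 26402 genes were higher at that threshold.

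**Figure D2:**
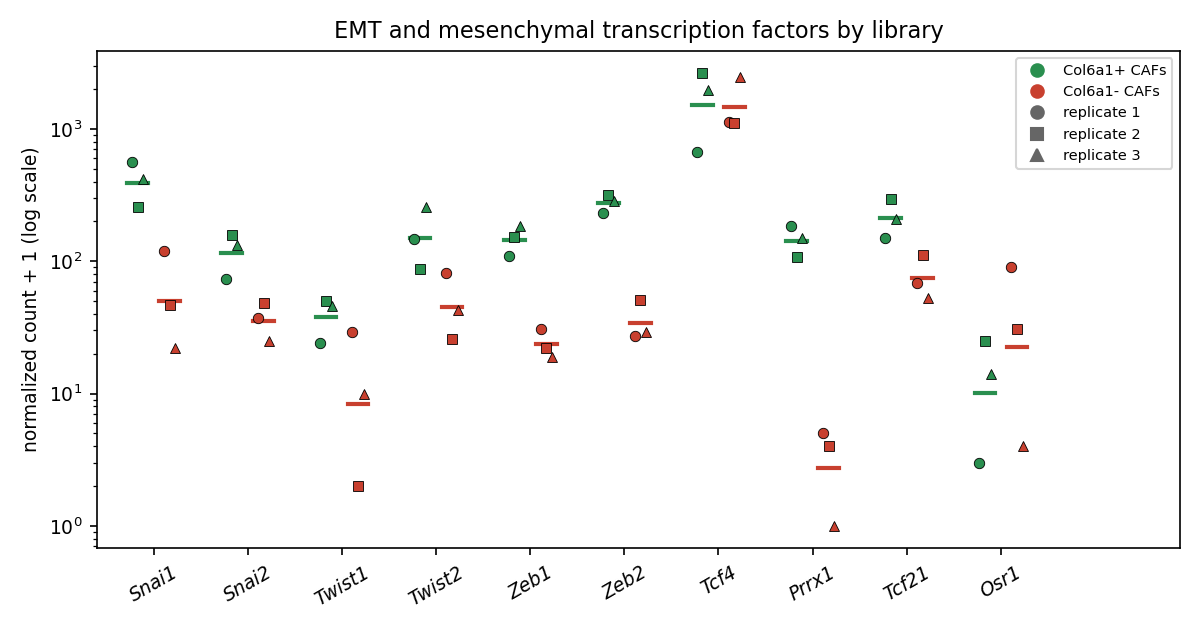
Normalized count plus 1 (log axis) of the 10 factors in the 3 Col6a1+ (green) and 3 Col6a1- (red) CAF libraries, with a symbol for each replicate number and a line at the mean of the log values. The subsets are apart for 7 factors, and overlap for Twist1, Tcf4 and Osr1.

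Prrx1, a paired-type homeobox factor of limb and connective tissue mesenchyme, showed the largest difference of the 10. Its gene (chr1:163245119-163313710, minus strand, mm10) had 182, 106 and 148 normalized counts in Col6a1+ CAFs and 4, 3 and 0 in Col6a1- CAFs. Thus it was near 0 in every Col6a1- library and above 100 in every Col6a1+ library. The means were 145 ± 38.1 (SD, n = 3) and 2.33 ± 2.08, and the log2 fold change was 5.72 (SE 0.80, 95% interval 3.96 to 7.48, adjusted p = 0.00341). Among all genes tested this was rank 28 from the highest log2 fold change, and rank 181 by the limma p-value. The summed counts, 436 and 7, gave a ratio of 62.3, with an exact 95% interval of 29.97 to 155.8 that covers counting error only and reads the normalized counts as reads. The adjusted p was 0.0629 with the replicate block and 0.00390 with the block among genes averaging 10 or more. The block over all genes tested thus ended the call, and the block among genes averaging 10 or more did not. Prrx1 reached that average only through its Col6a1+ libraries, so the filtered value is no separate support for the call. With 10 normalized counts required in every library, Prrx1 was not tested. The adjusted p was 0.0504 without Col6a1+ replicate 3, 0.0677 without Col6a1- replicate 1 and 0.0762 with no filter on low genes. Per 10000 pan-fibroblast marker counts, Prrx1 was at 23.7 to 43.5 in Col6a1+ and at 0 to 2.70 in Col6a1- CAFs, and on this scale it was still higher, by 4.57 on the log2 scale (adjusted p = 0.00380).

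Zeb2 and Zeb1, the zinc-finger homeobox repressors of E-cadherin, were both higher in Col6a1+ CAFs. Zeb2 (chr2:44983632-45117395, minus strand) had 229, 318 and 284 normalized counts in Col6a1+ and 26, 50 and 28 in Col6a1- CAFs. The lowest Col6a1+ library was thus well above the highest Col6a1- library. Its log2 fold change was 3.01 (SE 0.40, 95% interval 2.12 to 3.90, adjusted p = 0.00264, and 0.0612 with the replicate block), with means of 277 ± 44.9 and 34.7 ± 13.3 (SD, n = 3). Zeb1 (chr18:5591860-5775467, plus strand) had 109, 151 and 184 normalized counts in Col6a1+ and 30, 21 and 18 in Col6a1- CAFs. Again every Col6a1+ library was above 100 and every Col6a1- library at 30 or below. Its log2 fold change was 2.63 (SE 0.45, 95% interval 1.64 to 3.63, adjusted p = 0.00948, and 0.0835 with the block), with means of 148 ± 37.6 and 23.0 ± 6.25. Zeb2 lost its call without Col6a1- replicate 1 (adjusted p = 0.0717) or Col6a1- replicate 3 (0.0595), and Zeb1 without each library except Col6a1+ replicate 1 (0.0632 to 0.0882).

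Zeb2os, an antisense RNA on the opposite strand within Zeb2, had 49, 39 and 29 normalized counts in Col6a1+ and 17, 27 and 4 in Col6a1- CAFs. Since the strand setting of the counting is not given in the sources used here, reads of Zeb2 and Zeb2os in their shared stretch cannot be told apart, although Zeb2os was below Zeb2 in every library. That stretch (45111138 to 45114087) is near the 5′ end of Zeb2, while the reads of these libraries start at transcript 3′ ends.

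Per 10000 pan-fibroblast marker counts both Zeb genes stayed apart between the subsets. Zeb2 was at 54.8 to 71.0 in Col6a1+ and 17.5 to 37.7 in Col6a1- CAFs, and Zeb1 at 26.1 to 39.1 and 13.9 to 24.2. However, neither passed the test on this scale, with log2 fold changes of 1.13 (adjusted p = 0.109) and 0.77 (adjusted p = 0.322).

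Snai1, the Snail repressor that acts early in EMT and is induced by TGF-beta, was higher in Col6a1+ CAFs, whereas its paralogue Snai2 (Slug) did not pass the test. Snai1 (chr2:167538195-167542814, plus strand) had 559, 256 and 417 normalized counts in Col6a1+ and 118, 46 and 21 in Col6a1- CAFs. The subsets did not overlap, and replicate 1 was the highest library in both. The log2 fold change was 2.98 (SE 0.58, 95% interval 1.70 to 4.25, adjusted p = 0.0162), with means of 411 ± 152 and 61.7 ± 50.4 (SD, n = 3). The adjusted p was 0.0853 with the replicate block, and leaving out each of the 6 libraries in turn ended the call every time (0.0641 to 0.142). Snai2 (chr16:14705852-14709395, plus strand), which is broadly expressed in fibroblasts, had 73, 157 and 132 normalized counts in Col6a1+ and 36, 47 and 24 in Col6a1- CAFs. These did not overlap either, but the log2 fold change was 1.71 (SE 0.48, 95% interval 0.65 to 2.77) with an adjusted p of 0.0754 (0.147 with the block, and 0.0440 with the block among genes averaging 10 or more). Per 10000 pan-fibroblast marker counts, Snai1 was at 57.2 to 134 in Col6a1+ and 28.2 to 79.6 in Col6a1- CAFs, which overlap, and its log2 fold change was 1.09 (adjusted p = 0.138). On that scale Snai2 was at 17.5 to 35.1 and 24.3 to 32.3, and its log2 fold change turned to -0.17 (adjusted p = 0.805).

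Neither Twist1 nor Twist2, bHLH factors that hold back osteoblast maturation and mark dermal and other fibroblasts, passed the test. Twist2 (chr1:91801461-91848028, plus strand) had 145, 87 and 257 normalized counts in Col6a1+ and 80, 25 and 42 in Col6a1- CAFs. The groups were apart, but only by 87 against 80. Its log2 fold change was 1.73 (SE 0.55, 95% interval 0.52 to 2.94, adjusted p = 0.115), and 0.0392 was the adjusted p with the block among genes averaging 10 or more. Gm29101, a transcript within Twist2 on the same strand, had 0, 9 and 29 normalized counts in Col6a1+ and 0, 6 and 4 in Col6a1- CAFs. Twist1 (chr12:33957671-33959817, plus strand) had 23, 49 and 45 normalized counts in Col6a1+ and 28, 1 and 9 in Col6a1- CAFs. Here Col6a1- replicate 1 lay above Col6a1+ replicate 1, so the groups overlapped. The log2 fold change was 2.19 (SE 0.99, 95% interval 0.01 to 4.38, adjusted p = 0.310) and ranged from 1.16 to 3.09 as single libraries were left out. With pan-fibroblast scaling the log2 fold changes were 0.48 for Twist1 (adjusted p = 0.713) and -0.15 for Twist2 (adjusted p = 0.839).

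Tcf4 (E2-2), an E protein that pairs with other bHLH factors, did not differ beyond the spread between libraries. Its gene (chr18:69343356-69689079, plus strand) had 663, 2627 and 1950 normalized counts in Col6a1+ and 1117, 1116 and 2449 in Col6a1- CAFs. The libraries of both subsets were interleaved, and the lowest and the highest of the 6 were both Col6a1+. The log2 fold change was 0.05 (SE 0.50, 95% interval -1.06 to 1.16, adjusted p = 0.973). This interval holds differences of 1 log2 unit in either direction, so it does not show that the subsets were alike. Per 10000 pan-fibroblast marker counts, however, Tcf4 was at 159 to 587 in Col6a1+ and 740 to 3294 in Col6a1- CAFs. On that scale it was lower in Col6a1+ CAFs, the log2 fold change being -1.86 (adjusted p = 0.0307). The median on that scale was -1.50 over all genes tested and -2.03 over the genes averaging 10 or more. Tcf4 thus lay between these medians.

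Tcf21 and Osr1 mark mesenchymal progenitors, Tcf21 in heart, lung and kidney stroma and Osr1 in the lateral plate and in connective tissue. Tcf21 (chr10:22817279-22820128, minus strand) had 150, 294 and 208 normalized counts in Col6a1+ and 68, 111 and 52 in Col6a1- CAFs. Its libraries were apart, with a log2 fold change of 1.50 (SE 0.42, 95% interval 0.58 to 2.43, adjusted p = 0.0741, and 0.0249 with the block among genes averaging 10 or more). Osr1 (chr12:9574442-9581499, plus strand) had 2, 24 and 13 normalized counts in Col6a1+ and 89, 30 and 3 in Col6a1- CAFs. It was the only 1 of the 10 with a higher mean in Col6a1- CAFs, but the groups overlapped, and Col6a1- replicate 3 was almost as low as the lowest Col6a1+ library. The log2 fold change was -1.14 (SE 1.22, 95% interval -3.85 to 1.57, adjusted p = 0.642) and lay between -2.38 and -0.13 as single libraries were left out. With pan-fibroblast scaling it was -2.84 (adjusted p = 0.0623), and that of Tcf21 was -0.39 (adjusted p = 0.543).

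**Figure D3:**
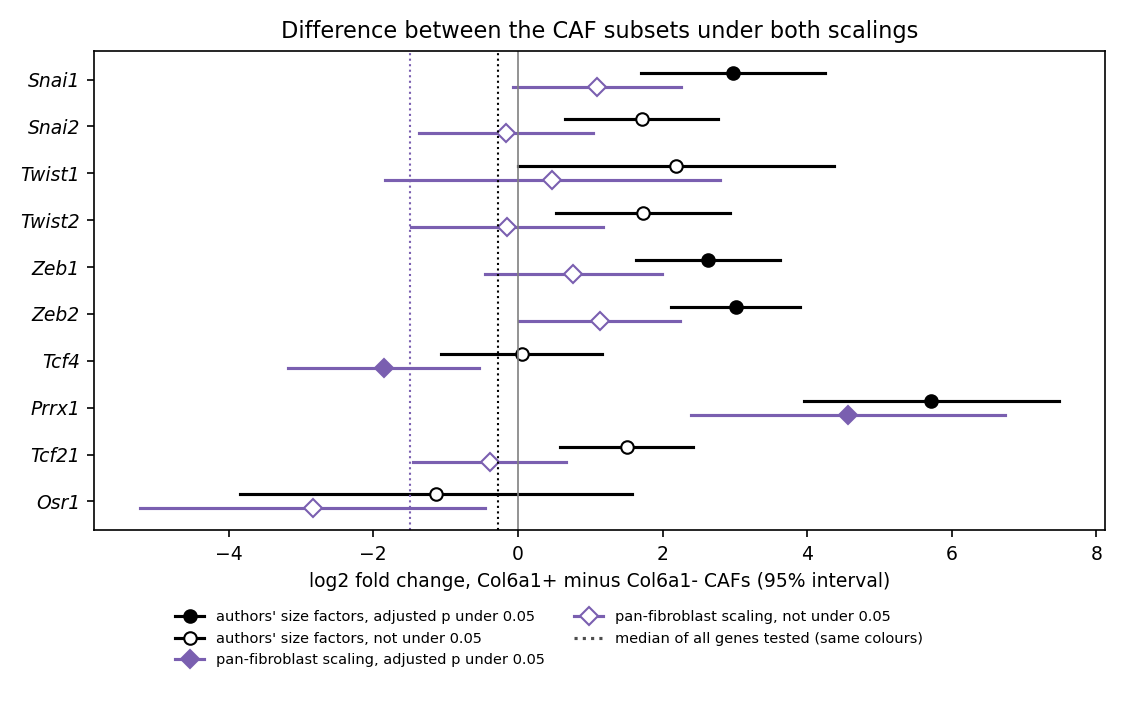
Log2 fold change of each factor, Col6a1+ minus Col6a1- CAFs, with its 95% interval (lines), from the authors' size factors (black circles) and after division by the pan-fibroblast markers (purple diamonds), filled where the adjusted p was under 0.05. Dotted lines give the median of all genes tested, -0.27 and -1.50. Prrx1 is filled on both scales, while Zeb1, Zeb2 and Snai1 are filled with the authors' size factors alone and Tcf4 is filled on the negative side with the pan-fibroblast scaling alone.

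Over the 10 factors, the pan-fibroblast scaling left 1 called as higher (Prrx1), beside 0.663% of all genes tested, and 1 as lower (Tcf4), beside 33.4% of all genes tested. The median log2 fold change was 0.16 over the factors and -1.50 over all genes tested, against 1.96 and -0.27 with the authors' size factors. This scaling was chosen after seeing the data, and the part that the cell content of the libraries has in the difference of each factor was not tested.

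Within each family pair the balance of the paralogues was compared as the share of the pair's summed normalized counts that fell to the second gene, without correction for differences between the genes in how well they are counted. Snai2 made up 11.6%, 38.0% and 24.0% of the Snail pair in the Col6a1+ libraries and 23.4%, 50.5% and 53.3% in the Col6a1- libraries. In each pair of libraries with the same replicate number the share was higher in Col6a1- CAFs, yet the groups overlapped. As pairs, the mean difference was -17.9 percentage points in a two-sided exact sign-flip permutation test with p = 0.25, the smallest that 3 pairs can give. Without the pairing, the means were 24.5 ± 13.2% and 42.4 ± 16.5% (SD, n = 3), and the two-sided exact permutation test gave p = 0.3 (0.7 adjusted over the 3 family pairs). Twist2 made up 86.3%, 64.0% and 85.1% of the Twist pair in Col6a1+ and 74.1%, 96.2% and 82.4% in Col6a1- libraries (exact permutation p = 0.7, and 1 as pairs). Zeb2 made up 67.8%, 67.8% and 60.7% of the Zeb pair in Col6a1+ and 46.4%, 70.4% and 60.9% in Col6a1- libraries (exact permutation p = 0.7, and 1 as pairs). Thus Twist2 and Zeb2 held the larger share in nearly every library of both subsets, with the single exception of Zeb2 in Col6a1- replicate 1. With 3 against 3 libraries the smallest p of the unpaired test is 0.1, so no share could pass a threshold of 0.05 in either test, and the tests do not show that the shares were alike.

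**Figure D4:**
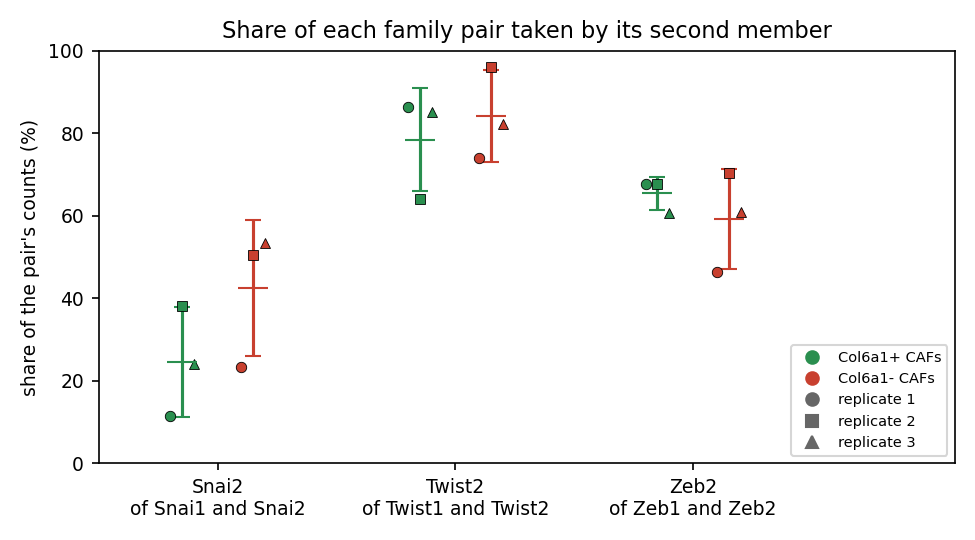
Share (%) of the summed normalized counts of each family pair taken by Snai2, Twist2 and Zeb2 in the 3 Col6a1+ (green) and 3 Col6a1- (red) CAF libraries, with a symbol for each replicate number, and the mean and SD as bars. The subsets overlap in all 3 pairs.

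The relatives and partners of these factors gave few calls outside the Id genes. Of 10 paralogues, 9 were tested and 0 were called in either direction, and their median was -0.01 on the log2 scale. With limma-voom 1 was higher and 1 lower. At an unadjusted p under 0.05, 2 were higher and 1 lower. At that threshold 1751 of all 26402 genes tested were higher and 2483 lower. Osr2, the paralogue of Osr1, had 70, 38 and 15 normalized counts in Col6a1+ and 3, 2 and 0 in Col6a1- CAFs, at least 13.7-fold higher when the Col6a1- mean is set to a floor of 3, with an adjusted p of 0.0533. Its groups were thus apart in the direction opposite to the means of Osr1. Osr2 was called with limma-voom, with array weights and in 2 fits on genes averaging 10 or more, 1 of them blocked. It reached that average only through its Col6a1+ libraries, so these 2 fits are no separate support. Scx, a bHLH factor of tendon, went the other way, with 0 in each Col6a1+ library against 3, 6 and 8 normalized counts, at least 1.89-fold lower against the floor of 3 (adjusted p = 0.0799), and was called with limma-voom and with array weights. Msc, a bHLH repressor close to Tcf21, had 59, 229 and 177 normalized counts in Col6a1+ and 36, 112 and 31 in Col6a1- CAFs, with an adjusted p of 0.308.

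All 4 Id genes, whose products take E proteins such as Tcf4 out of action, had log2 fold changes above 0. Of the 4, 2 were called higher in Col6a1+ CAFs, beside 2.66% of all genes tested. Id3 had 13696, 7497 and 7820 normalized counts in Col6a1+ and 3419, 2211 and 2630 in Col6a1- CAFs, and the log2 fold change was 1.78 (SE 0.33, adjusted p = 0.0129). Id4 had 256, 82 and 99 against 17, 33 and 33, and its log2 fold change was 2.23 (SE 0.55, adjusted p = 0.0462). Id2 gave a log2 fold change of 0.75 (adjusted p = 0.197) and Id1 of 0.29 (adjusted p = 0.631). Id3 alone was called with limma-voom, with a pseudocount of 0.1 and without Col6a1+ replicate 2, and 0 of the 4 were called with no filter on low genes or without any other single library. With pan-fibroblast scaling 0 were higher and 1 was lower (Id1).

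The 12 genes listed as corepressors of Snail and Zeb proteins, CtBP, CoREST and Polycomb subunits among them, gave 0 calls in either direction. At an unadjusted p under 0.05, 2 were higher and 1 lower, and 0 were called with limma-voom. Their median was -0.22 on the log2 scale, beside -0.27 for all genes tested. Ajuba was called higher in 3 alternatives, with 10 normalized counts required in every library, with array weights, and in the blocked fit on genes averaging 10 or more. The largest differences were those of Ajuba, a LIM protein recruited by Snail (2.12, adjusted p = 0.0683), and of Ezh2, the Polycomb methyltransferase (-3.66, adjusted p = 0.113). Ezh2 had 0, 26 and 11 normalized counts in Col6a1+ and 74, 39 and 218 in Col6a1- CAFs.

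The genes on either side of EMT moved in opposite directions. The median log2 fold change of the 20 mesenchymal genes was 1.96, the same as that of the factors. None was lower (0 also at an unadjusted p under 0.05 and with limma-voom). Of the 20, 12 were higher in Col6a1+ CAFs, beside 2.66% of all genes tested. These included the PDGF receptor Pdgfrb at 4.28 (adjusted p = 3.36e-04), N-cadherin Cdh2 at 4.60 (adjusted p = 0.00613), the smooth muscle actin Acta2 at 3.88 (adjusted p = 0.00353) and the receptor kinase Axl at 3.67 (adjusted p = 0.00191). Cdh2 had 125, 119 and 130 normalized counts in Col6a1+ and 1, 9 and 6 in Col6a1- CAFs. Pdgfrb had 2084, 1329 and 1612 against 115, 89 and 58, so that both genes, like Prrx1, were far apart. Vim, the intermediate filament of mesenchymal cells, differed less, with 3067, 3237 and 3508 against 1984, 1437 and 1876 normalized counts and a log2 fold change of 0.90 (adjusted p = 0.0878). The 12 called genes ranged from 1.31 (Fn1) to 4.60 (Cdh2). Of the 20, 6 are also in the pan-fibroblast or pericyte marker lists, Acta2 and Pdgfrb among them.

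Of the 16 junction genes, 12 were lower in Col6a1+ CAFs, beside 1.96% of all genes tested. None of the 16 was higher (0 also at an unadjusted p under 0.05 and with limma-voom). The called genes ranged from -1.60 (Krt19) to -3.24 (Krt18) on the log2 scale, and the median of the 16 was -2.28. E-cadherin, Cdh1, which Snail and Zeb proteins repress, had 2999, 2344 and 2580 normalized counts in Col6a1+ and 10493, 15452 and 11963 in Col6a1- CAFs, and the log2 fold change was -2.25 (SE 0.28, adjusted p = 0.00212). Among the genes with the E-box letters printed for the promoters, Epcam changed by -2.12 (adjusted p = 0.00331) and Cldn4 by -3.13 (adjusted p = 0.00640), while Crb3, with the most copies, had 0, 24 and 21 against 65, 101 and 106 normalized counts and an adjusted p of 0.119. Cldn7, with none, was also lower, by a log2 fold change of -2.18 (adjusted p = 0.0352). Of 10 epithelial factors that oppose EMT, 2 were lower in Col6a1+ CAFs, beside 1.96% of all genes tested. These were the splicing regulator Esrp1 at -1.74 (adjusted p = 0.0145) and the ETS factor Elf3 at -2.12 (adjusted p = 0.0313). None of the 10 was higher (0 also at an unadjusted p under 0.05 and with limma-voom), and their median was -2.54. The count of lower factors was 4 with limma-voom or library size alone, 5 with array weights or with the block among genes averaging 10 or more, 3 in the unblocked fit on those genes, 1 with a pseudocount of 0.1 and 0 with no filter. It was 1 without Col6a1+ replicate 1 and 0 without each other library. These epithelial genes moved with the summed epithelial markers, 6 of which are in the junction list and 1 of which (Elf3) is in the list of epithelial factors, although the sort had removed EpCAM+ cells. The part that epithelial RNA has in these differences was not tested.

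With pan-fibroblast scaling, 5 of the 20 mesenchymal genes were higher, beside 0.663% of all genes tested, and 0 lower. Of the 20, 5 are themselves among the markers that form this scale, Col1a1, Col3a1 and Pdgfrb included, so their scaled values are not independent of it. All 16 junction genes, 8 of the 10 epithelial factors, 9 of the 12 corepressors and 3 of the 9 paralogues were lower, beside 33.4% of all genes tested. The 3 paralogues make up the same share of their list as the lower genes do of all genes. The replicate block over all genes gave 0 calls in each of these lists. Among genes averaging 10 or more, the blocked fit called 16 mesenchymal genes, 2 Id genes, 1 of 12 corepressors and 1 of 6 paralogues as higher. The share of those 13515 genes called higher was 7.26%, and the corepressors were near it. As lower it called 15 junction genes and 5 epithelial factors, beside 6.44% of those 13515 genes. Cdh2 and Osr2 reached that average only through their Col6a1+ libraries, and Marveld2 only through its Col6a1- libraries. The calls of these genes in this fit are thus no separate support. Without Col6a1- replicate 1, 1 mesenchymal gene and 0 junction genes were called (17 and 14 at an unadjusted p under 0.05). In that fit 1585 of 25839 genes were higher and 2533 lower at an unadjusted p under 0.05.

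**Figure D5:**
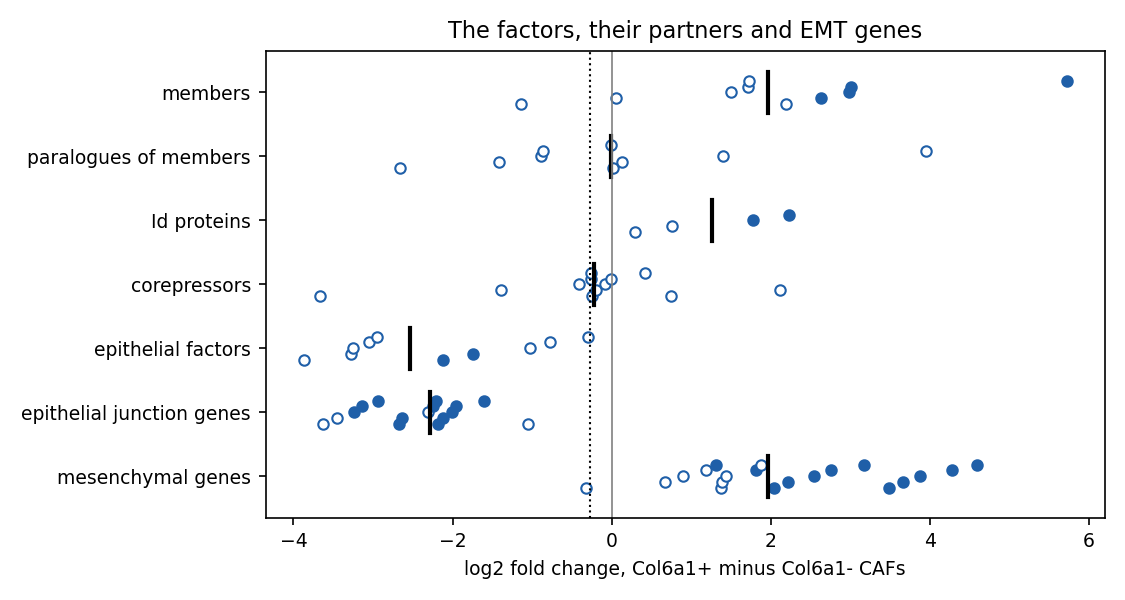
Log2 fold change, Col6a1+ minus Col6a1- CAFs, of the 10 factors and of 6 lists of related genes, with each gene as a circle, filled where the adjusted p was under 0.05, a bar at each list's median and a dotted line at the median of all genes tested (-0.27). The 16 junction genes all lie below 0, while 9 of the 10 factors and 19 of the 20 mesenchymal genes lie above.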

How the data were processed

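Libraries of the QuantSeq kit, whose reads start at transcript 3′ ends, were sequenced on an Ion Proton from RNA with an integrity number above 7. The authors mapped the reads to mm10 with TopHat2 and then Bowtie2, counted them per gene and ran DESeq, which is taken here to have normalized the counts. The deposited values are the log2 of the normalized count plus 1, all of them whole counts within a tolerance of 0.0001 once the log is undone. Fold changes, p-values and false discovery rates of the authors, and 6 further columns of per-sample values, are in the table and were not used. True read numbers are therefore unknown, and the p-values measure the spread between pools of mice.

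The values were used as deposited in limma 3.58.1 (R 4.3.3) with moderated variances that follow the mean (6.48 prior and 4 residual degrees of freedom) over the 26402 genes with at least 1 summed normalized count, with Benjamini-Hochberg adjustment over them and a threshold of 0.05. The code was tested on simulated data. Shares were compared by exact permutation (SciPy 1.17.1). Figures were made in Matplotlib 3.10.9.

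The factors, gene lists and tests were chosen with earlier results of these data known. The rule for named genes took the 10 factors, Col6a1 and transcripts that overlap a factor, allowed any called gene of the related lists, and took the 2 largest changes averaging 10 or more normalized counts in a list without calls. Scx, Id1, Id2, Vim and Crb3 were named after their values were seen. Promoter windows came from RefSeq on GRCm38.p6, and where a gene had several, the one nearest the start in the authors' table was taken. The windows of Snai2, Zeb1, Tcf4 and Osr1 were not used here.

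Deviations from the group means correlated at 0.245, 0.125 and 0.144 between libraries with the same replicate number, and at -0.245 to 0.150 otherwise (13515 genes). The highest of the others, Col6a1+ replicate 2 with Col6a1- replicate 3, was above 2 of the same-number values. The study's figure legend gives 3 samples in all, each a pool, so the numbers were read as pairs and blocked values are given. The labels do not say that equal numbers are the same pool, so the pairing is an assumption. No library was a copy of another. The alternatives were library size alone, 2 stricter filters and no filter, limma-voom, a pseudocount of 0.1, the block, array weights, unadjusted p-values and leaving out each library. Pan-fibroblast scaling and the paired test of the shares were added after seeing the data.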

Additional observations from a re-analysis of the deposited data

How the results depend on the processing

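None of the 4 called factors kept its call under all alternatives run, and the cause was not tested. Beside 703 genes higher and 517 lower, no filter on low genes gave 21 and 7, unadjusted p-values with an absolute log2 fold change over 1 gave 1607 and 2273, and pan-fibroblast scaling gave 175 and 8810. The lower genes alone moved to 798 with limma-voom, 336 with a pseudocount of 0.1 and 969 with array weights. The replicate block, by the assumed pairing of the libraries, gave 0 and 0 over all genes, and 981 and 871 among those averaging 10 or more. Leaving out 1 library gave 11 to 453 higher and 1 to 442 lower, the lowest without Col6a1- replicate 1.

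The 4 factors called higher became 0 with no filter (7 at an unadjusted p under 0.05) and 0 with the replicate block, 7 with the block among genes averaging 10 or more, 1 with pan-fibroblast scaling (and 1 lower), 8 with unadjusted p-values, and 0 to 4 without 1 library. The 14 related genes called higher and 14 called lower became 0 and 0 with no filter and with the replicate block, and 5 and 37 with pan-fibroblast scaling. There were 25 lower with unadjusted p-values, and 1 to 10 higher and 0 to 13 lower without 1 library.

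Pan-fibroblast scaling turned the log2 fold changes of Snai2 (-0.17), Twist2 (-0.15), Tcf21 (-0.39) and Tcf4 (-1.86). That of Tcf4 was also negative with library size alone (-0.0023), and ran from -0.35 to 0.64 as single libraries were left out. The difference in the Twist2 share ran from -10.8 to 1.51 percentage points and that in the Zeb2 share from -0.23 to 11.8 without 1 library. Shares compared as pairs by replicate number gave exact p-values of 0.25, 1 and 1. With 2 against 3 libraries the exact test cannot go below 0.2. In all, of 157 comparisons of a factor with an alternative, 9 changed direction, 26 lost the call, 8 gained one and 114 did neither. Counts near 0, as for Prrx1, Osr2 and Twist1 in Col6a1- CAFs, limit the precision of those fold changes.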
